A study of Mus musculus with 9 samples.

Results

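The genes of cholesterol synthesis, uptake and efflux were examined in the liver of STAM mice with and without insulin treatment and of Normal mice. The 35 genes were chosen by name. Each probe that was not a control spot was a member if its RefSeq accession, without the version, mapped to a mouse symbol of that list. All 35 genes had a probe, out of 20972 genes named on the array, and they were covered by 47 of 55681 distinct probes. Of these 47 probes, 45 were bright enough to be tested, and every gene kept at least 1 of them. The rule used names and no signals, but the genes were chosen with earlier results of these data known. Where a gene had several tested probes, the one with the highest mean over the 9 arrays is given, and other probes are given where they differed in call.

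Cholesterol is built from acetyl-CoA. The early steps join acetyl groups, form mevalonate and convert it to the isoprenoid farnesyl diphosphate, and the later steps join farnesyl units to squalene, close the sterol rings and trim lanosterol to cholesterol. The transcription factor SREBP-2, encoded by Srebf2, switches on these enzymes. It is escorted to the Golgi by Scap when membrane sterol is low and is held back in the endoplasmic reticulum by the Insig proteins when sterol is plentiful. In the opposite state, oxysterols activate the receptor LXR, which raises the exporters Abca1, Abcg1, Abcg5 and Abcg8. Excess cholesterol is stored as ester, exported into bile or lipoproteins, or used for bile acids, and the liver is the main organ for all of these routes.

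The data came from 9 male mice with 1 array per mouse, 3 in each of 3 groups, and the methods give the age at sampling as 20 weeks. STAM mice were C57B/6 J mice injected under the skin with low-dose streptozotocin as newborns, a DNA-damaging agent toxic to the beta cells of the pancreas, and fed High Fat Diet 32 after weaning. STAM-NON mice received no insulin, whereas STAM-INS mice were injected with insulin. The paper names insulin glargine, a long-acting insulin analogue, for its STAM-INS mice at 20 weeks, but its array methods do not name the analogue. Normal mice had neither streptozotocin nor that diet by the description of the model, so that toxin, diet and diabetes differ together between the STAM groups and Normal. The sources used here do not state whether tumour tissue was kept out of the liver samples. Total liver RNA was labelled with Cy3, and each value below is a centred log2 signal, the log2 of the background-subtracted spot intensity after subtraction of its array's 75th percentile. A spot at that percentile has a value of 0, and genes are not compared in level because their probes differ in brightness. P-values from 3 mice a group weigh a difference against the spread between mice within groups, pooled over all 9 mice. A mouse outside a comparison can therefore change its p-values. Limma also draws the spread of each probe towards a value estimated from all tested probes.

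All 6 STAM arrays lay on 1 slide and all 3 Normal arrays on another, so slide and group cannot be told apart in any comparison with Normal. The share of spots well above background ran from 46.2% to 51.1% in Normal, from 47.8% to 63.1% in STAM-NON and from 47.8% to 65.0% in STAM-INS. It was 59.3% and 63.1% for STAM-NON replicates 1 and 3, 65.0% for STAM-INS replicate 1 and lower on the other arrays. All 7 hepatocyte markers, with Alb (albumin) and Ttr (transthyretin) among them, were well above background on all 9 arrays. In bulk liver, fewer cells of a type and less RNA per cell cannot be told apart.

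In both STAM groups, more enzymes of cholesterol synthesis rose than fell against Normal, whose arrays lay on another slide. The STAM-NON count changed with single mice and settings, as given below. None of the 6 genes of efflux or LXR passed the test in either STAM group, beside 16.1% and 13.9% of all tested probes. With so few genes, that does not set them apart. Against Normal, 7 of the 18 synthesis enzymes rose in STAM-NON (Hmgcs1, Pmvk, Mvd, Fdps, Sqle, Lss and Hsd17b7) and 2 fell (Acat2 and Tm7sf2). In STAM-INS, 12 of the 18 rose against Normal and none fell. Over all 35 genes, 8 rose and 3 fell in STAM-NON, beside 16.1% of all 26278 tested probes that passed the same test (6.3% higher and 9.76% lower; limma with Benjamini-Hochberg adjustment, threshold 0.05). In STAM-INS, 15 of the 35 rose and 1 fell, beside 13.9% of all probes (5.16% higher and 8.72% lower). These totals include Soat1, whose probe was well above background on 1 of 3 Normal arrays and entered the test through the STAM arrays. Over the 34 genes above background on all 9 arrays, 7 rose and 3 fell in STAM-NON, and 14 rose and 1 fell in STAM-INS. Of the 17 genes other than synthesis enzymes, 2 passed in STAM-NON and 4 in STAM-INS, beside the same 16.1% and 13.9%. The STAM-NON calls do not set these 17 genes apart. Without adjustment, 17 of 35 genes had a p under 0.05 in STAM-NON, beside 35.8% of all probes, and 23 of 35 in STAM-INS, beside 32.5%. Differences above 0 were seen for 22 of 35 in STAM-NON, beside 36.8% of all probes, and for 23 of 35 in STAM-INS, beside 40.4%. The median difference of the 18 enzymes from Normal was 0.65 in STAM-NON and 1.07 in STAM-INS on the log2 scale, whereas the median over all tested probes was -0.13 and -0.09. Both comparisons use the same 3 Normal mice, so the likeness of their lists is no separate evidence.

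**Figure D1:**
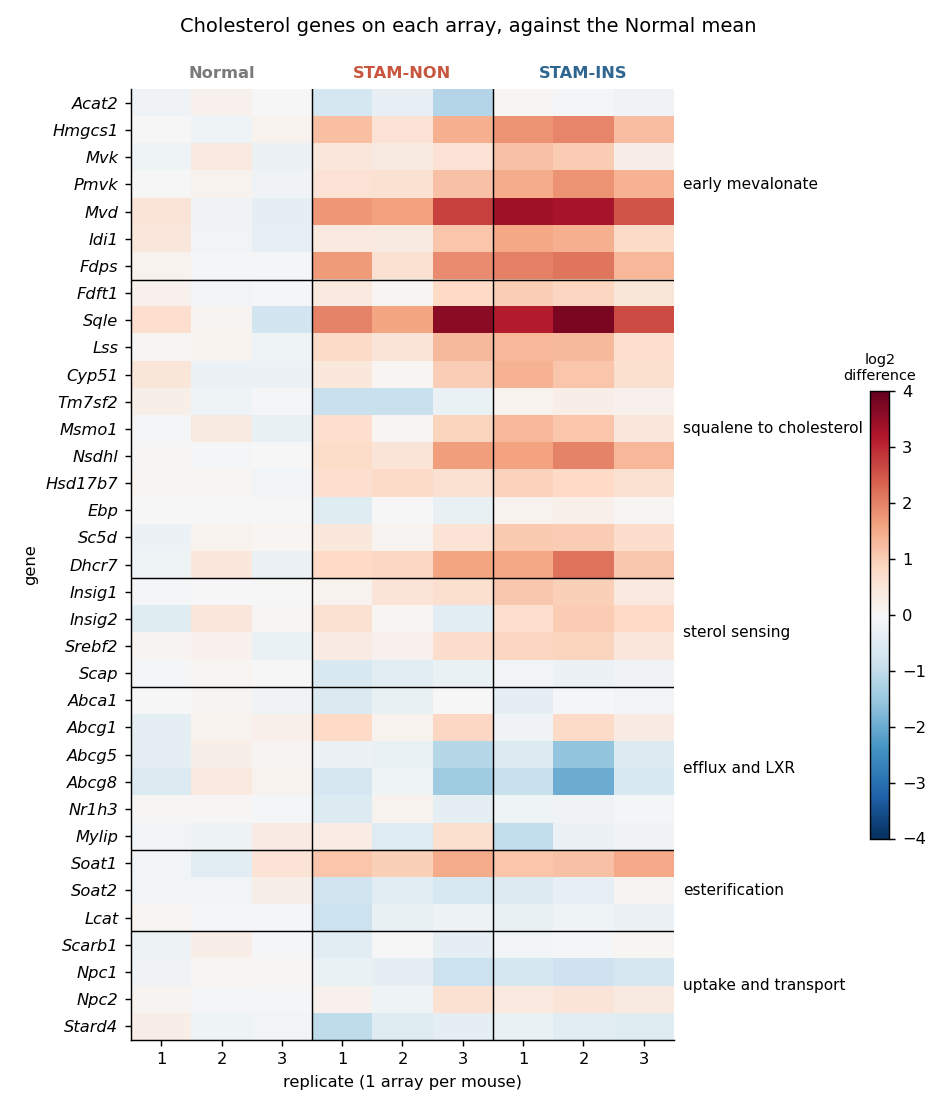
Heat map of the 35 genes (rows, by role) on the 9 arrays (columns, replicates 1 to 3 of each group), with colour giving the centred log2 signal minus the Normal mean of the gene. Sqle and Mvd have the darkest red cells in both STAM groups, and the rows of efflux and LXR genes are pale or blue. The rows of Tm7sf2 and Acat2 are bluer in STAM-NON than in STAM-INS or Normal.

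The count in STAM-NON changed with single mice. It was 2 without STAM-NON replicate 1, 4 without STAM-NON replicate 3 and 7 without STAM-INS replicate 1. Leaving out Normal replicate 1 gave 2, Normal replicate 2 gave 1 and Normal replicate 3 gave 1. The count in STAM-INS was 10 without STAM-INS replicate 1, 6 without STAM-INS replicate 2, and 9, 8 and 8 without Normal replicates 1, 2 and 3. The slide row held STAM-NON and STAM-INS replicate 1 (row 1) or STAM-INS replicates 2 and 3 and Normal (row 2). With the row as a block, 0 of 35 genes passed in STAM-NON and 10 in STAM-INS, with medians of 0.33 and 0.93 over the synthesis enzymes. Only STAM-INS lay in both rows, so the row effect is its replicate 1 against its replicates 2 and 3. The STAM-NON result with the block rests on that 1 mouse. For STAM-INS, the block gives the same fit as leaving out replicate 1, when all mice compared lay in row 2. These are not 2 separate checks. The direction of the 2 synthesis genes and Scap that fell was the same under all 24 alternatives, but none of the falls passed the test with spike-in centring (11 higher and 0 lower), with quantile normalisation (7 and 0) or with a percentile from the commonly detected probes (8 and 0), and 6 genes fell after normexp background correction (7 higher).

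The 35 genes showed 4 orders of their group means. Of the 18 synthesis enzymes, 15 had the order Normal, STAM-NON, STAM-INS from low to high, and the other 3 (Acat2, Tm7sf2 and Ebp) were lowest in STAM-NON. Of the 17 other genes, 5 had the same rising order, 7 were lowest in STAM-NON, 2 were highest in STAM-NON, and 3 (Abcg5, Abcg8 and Npc1) had decreasing means in the order Normal, STAM-NON, STAM-INS. These orders describe means and were not tested as such. The mean over the 7 early enzymes of the difference from Normal was 0.81 ± 0.28 in STAM-NON and 1.45 ± 0.35 in STAM-INS, beside 0.14 for the SD of Normal (n = 3 mice each). For the 11 later enzymes it was 0.62 ± 0.37 and 1.12 ± 0.28. The 6 genes of efflux and LXR had means of -0.19 ± 0.04 in STAM-NON and -0.41 ± 0.20 in STAM-INS.

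**Figure D2:**
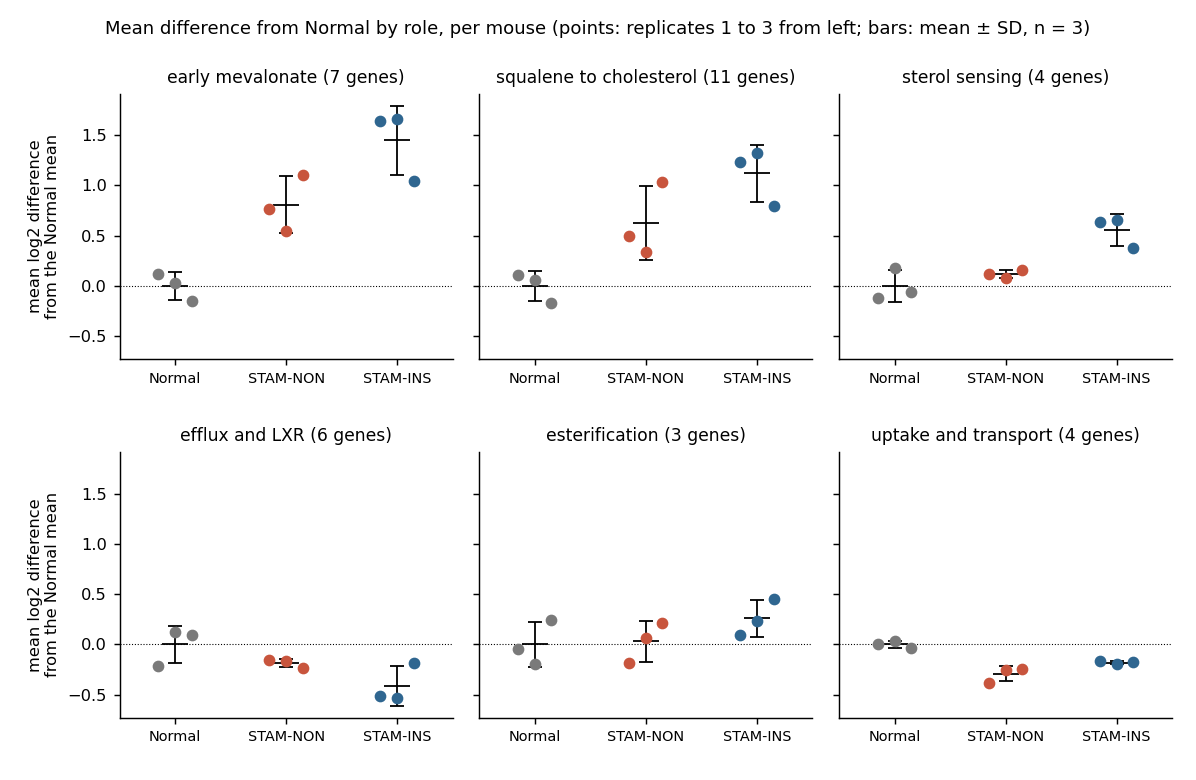
Mean difference from the Normal mean (log2, vertical axis) over the genes of each role, with 1 point per mouse and bars for the mean ± SD of 3 mice. All 6 STAM mice lie above the 3 Normal mice for both groups of synthesis enzymes, and STAM-NON replicate 3 lies within the range of the STAM-INS mice there.

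Most synthesis enzymes had the same lowest mouse within a group, and in STAM-NON also the same highest mouse. STAM-NON replicate 3 was the highest of its group for 15 of the 18 enzymes, and STAM-NON replicate 2 was the lowest for 13. STAM-INS replicate 3 was the lowest of its group for 17 of 18, and Normal replicate 3 was the lowest of its group for 12. Of the spots, 63.1% were well above background for STAM-NON replicate 3, beside 47.8% for STAM-NON replicate 2 and 49.8% for STAM-INS replicate 3. STAM-INS replicate 2, with a share of 47.8%, was the highest of its group for 8 enzymes, and STAM-INS replicate 1 for 10. In Normal, replicate 1 was the highest for 9 enzymes and replicate 2 for 8. Whether the share of bright spots bears on these values was not tested.

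The stretches just before the start of transcription of 7 synthesis genes are shown. They are 5 that rose in STAM-NON (Hmgcs1, Mvd, Pmvk, Lss and Hsd17b7) and both that fell (Acat2 and Tm7sf2), chosen because they differ in direction. No promoter sequence was given for Fdps or Sqle, which also rose. Each run holds the 150 bases before the annotated start, 5′ to 3′ on the strand of the gene, from RefSeq on GRCm38.p6, with matches to 3 motifs in capitals. The motifs, searched on both strands, were TCACNCCAC (a form of the sterol regulatory element, which SREBP binds), CCAAT (the CCAAT box, read as ATTGG on the other strand) and CACGTG (an E-box).
Hmgcs1: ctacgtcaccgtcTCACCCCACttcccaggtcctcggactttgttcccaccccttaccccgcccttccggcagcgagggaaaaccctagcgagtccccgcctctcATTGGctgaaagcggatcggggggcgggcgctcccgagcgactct
Mvd: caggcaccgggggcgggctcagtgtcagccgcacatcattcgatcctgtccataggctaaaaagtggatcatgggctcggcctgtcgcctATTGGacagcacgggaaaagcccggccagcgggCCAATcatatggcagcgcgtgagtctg
Pmvk: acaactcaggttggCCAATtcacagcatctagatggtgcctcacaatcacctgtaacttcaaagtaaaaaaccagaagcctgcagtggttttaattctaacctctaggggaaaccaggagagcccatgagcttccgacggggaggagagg
Lss: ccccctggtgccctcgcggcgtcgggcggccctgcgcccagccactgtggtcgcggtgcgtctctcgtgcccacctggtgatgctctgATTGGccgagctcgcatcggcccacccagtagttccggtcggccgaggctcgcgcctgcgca
Hsd17b7: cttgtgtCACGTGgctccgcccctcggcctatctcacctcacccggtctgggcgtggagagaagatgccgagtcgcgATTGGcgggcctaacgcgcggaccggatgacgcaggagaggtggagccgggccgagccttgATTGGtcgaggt
Acat2: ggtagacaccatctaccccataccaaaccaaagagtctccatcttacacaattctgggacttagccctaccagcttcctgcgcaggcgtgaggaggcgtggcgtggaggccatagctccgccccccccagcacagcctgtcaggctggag
Tm7sf2: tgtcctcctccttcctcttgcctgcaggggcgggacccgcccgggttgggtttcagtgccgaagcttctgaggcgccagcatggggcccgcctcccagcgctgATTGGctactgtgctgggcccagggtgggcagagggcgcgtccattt
They lie at chr13:119690201-119690350 (+ strand) for Hmgcs1, chr8:122443423-122443572 (- strand) for Mvd, chr3:89454391-89454540 (+ strand) for 1 of the 2 Pmvk windows, chr10:76531455-76531604 (+ strand) for Lss, chr1:169969206-169969355 (- strand) for Hsd17b7, chr17:12960726-12960875 (- strand) for Acat2 and chr19:6067851-6068000 (- strand) for Tm7sf2. Each lies upstream of the annotated start it was taken from, which says nothing about other starts of the gene.

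Promoter windows (250 bases before to 50 after the start) were given for 27 of the 35 genes. CCAAT was found in 23 of these 27 genes (85.2%), beside 41.1% of 27025 genes with a window, and in all 9 later synthesis enzymes with a window. Acat2 was the 1 early enzyme of 6 without it. CACGTG was found in 6 of 27 genes (22.2%; Abca1, Dhcr7, Hsd17b7, Insig1, Sc5d and Scap), beside 8.09% of all genes. TCACNCCAC was found in 1 of 27 (3.7%), beside 1.44% of all genes, namely in Hmgcs1 at -137 to -129 from the start. A gene with several windows counted if any of them matched, the windows of Abcg5 and Abcg8 overlap, and a match is a description of letters, not of binding. Tm7sf2, which fell in STAM-NON, and Lss, which rose, each held 1 CCAAT match in the stretch shown.

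Among the early enzymes, 4 of 7 rose and 1 fell in STAM-NON, beside 6.3% higher and 9.76% lower among all tested probes. In STAM-INS, 5 of 7 rose, beside 5.16% of all probes. Hmgcs1, which condenses acetyl units to HMG-CoA, had signals of 4.88, 4.68 and 4.99 in Normal, 6.05, 5.43 and 6.27 in STAM-NON and 6.66, 6.81 and 6.09 in STAM-INS. Every STAM mouse exceeded every Normal mouse, and the STAM groups overlapped. Hmgcs1 was 2.09-fold higher in STAM-NON (difference 1.07, SE 0.25, limma adjusted p 0.0294) and 3.19-fold higher in STAM-INS (difference 1.67, SE 0.25, limma adjusted p 0.00700). Pmvk, which adds the second phosphate to mevalonate, gave 4.04, 4.17 and 3.88 in Normal, 4.62, 4.63 and 5.19 in STAM-NON and 5.50, 5.82 and 5.41 in STAM-INS. Its 3 groups did not overlap. It rose by 0.79 in STAM-NON and by 1.55 in STAM-INS against Normal (limma adjusted p 0.0295 and 0.00343), and its other probe passed in the same comparisons.

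Mvd, the decarboxylase that makes isopentenyl diphosphate, had the largest difference of the early enzymes. Signals of -0.61, -1.25 and -1.48 in Normal compared with 0.62, 0.53 and 1.63 in STAM-NON and 2.28, 2.20 and 1.40 in STAM-INS. The lowest STAM mouse lay above the highest Normal mouse by over 1 log2 unit. Mvd was 4.12-fold higher in STAM-NON (difference 2.04, SE 0.37, limma adjusted p 0.0152) and 8.41-fold higher in STAM-INS (difference 3.07, SE 0.37, limma adjusted p 0.00338). Idi1, the isomerase of the next step, gave 4.12, 3.56 and 3.33 in Normal, 4.06, 4.05 and 4.77 in STAM-NON and 5.21, 5.11 and 4.44 in STAM-INS. STAM-NON overlapped with Normal, since Normal replicate 1 reached the level of STAM-NON replicates 1 and 2, and the difference of 0.62 did not pass (limma adjusted p 0.173). Idi1 rose in STAM-INS by 1.25 (SE 0.30, limma adjusted p 0.0313).

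Fdps, which joins isoprene units to farnesyl diphosphate, gave 4.91, 4.71 and 4.69 in Normal, 6.48, 5.38 and 6.67 in STAM-NON and 6.79, 6.92 and 6.08 in STAM-INS. STAM-NON replicate 2 was about 1 log2 unit below the other STAM-NON mice but above every Normal mouse. Fdps rose by 1.41 in STAM-NON (SE 0.34, limma adjusted p 0.0317) and by 1.83 in STAM-INS (SE 0.34, limma adjusted p 0.0150). Acat2, a cytosolic thiolase that joins acetyl-CoA units at the head of the route, went the other way, with 5.61, 5.93 and 5.73 in Normal, 5.06, 5.43 and 4.60 in STAM-NON and 5.80, 5.71 and 5.61 in STAM-INS. All STAM-NON mice lay below all mice of both other groups. Acat2 fell by 0.73 in STAM-NON (SE 0.20, limma adjusted p 0.0457), and STAM-INS differed from Normal by -0.05 (95% interval -0.52 to 0.41). Mvk, the kinase that phosphorylates mevalonate, did not pass in STAM-NON (0.46, limma adjusted p 0.227) or in STAM-INS (0.81, limma adjusted p 0.0683), although its dimmer probe passed in STAM-INS (limma adjusted p 0.0461).

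In STAM-NON, the calls of Hmgcs1, Pmvk, Fdps and Sqle were each lost without STAM-NON replicate 1 or 3 or without any 1 of the Normal mice, with limma adjusted p up to 0.0880, 0.0943, 0.0923 and 0.0903. The call of Mvd was lost without Normal replicate 2 or 3 (up to 0.0562), and that of Acat2 was kept only without STAM-NON replicate 2. In STAM-INS, Hmgcs1, Pmvk, Mvd, Sqle, Nsdhl and Hsd17b7 passed whichever mouse was left out. Idi1 was lost without STAM-INS replicate 1 or 2 or Normal replicate 2 or 3 (up to 0.102), and Fdps without STAM-INS replicate 2 or Normal replicate 2 or 3 (up to 0.0571).

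Of the 11 enzymes from squalene to cholesterol, 3 rose and 1 fell in STAM-NON, beside 6.3% higher and 9.76% lower among all tested probes. In STAM-INS, 7 rose, beside 5.16% of all probes. Sqle, the epoxidase that oxidises squalene, had the largest difference of all 35 genes, with 2.16, 1.60 and 0.75 in Normal, 3.50, 3.10 and 5.13 in STAM-NON and 4.64, 5.27 and 4.12 in STAM-INS. It was also among the most variable, with an SD of 1.08 in STAM-NON and 0.71 in Normal (n = 3), yet no STAM mouse overlapped with a Normal mouse. Sqle was 5.28-fold higher in STAM-NON (difference 2.40, SE 0.57, limma adjusted p 0.0292) and 9.02-fold higher in STAM-INS (difference 3.17, SE 0.57, limma adjusted p 0.0126). Fdft1, the squalene synthase that supplies it, gave 3.38, 3.10 and 3.10 in Normal, 3.58, 3.27 and 4.0 in STAM-NON and 4.17, 4.05 and 3.67 in STAM-INS. It rose in STAM-INS by 0.77 (limma adjusted p 0.0455), whereas the difference of 0.42 in STAM-NON did not pass (limma adjusted p 0.185).

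Lss, which closes the sterol rings to lanosterol, gave 0.58, 0.69 and 0.36 in Normal, 1.30, 1.05 and 1.84 in STAM-NON and 1.87, 1.83 and 1.21 in STAM-INS. It rose by 0.86 in STAM-NON (SE 0.24, limma adjusted p 0.0481) and by 1.1 in STAM-INS (SE 0.24, limma adjusted p 0.0251). Hsd17b7, a ketosteroid reductase of the removal of methyl groups from the ring, varied little within the groups, with 1.39, 1.34 and 1.21 in Normal, 1.98, 2.09 and 1.91 in STAM-NON and 2.23, 2.12 and 1.91 in STAM-INS. The Normal mice lay apart from both STAM groups, which overlapped. Hsd17b7 rose by 0.68 in STAM-NON (SE 0.12, limma adjusted p 0.0146) and by 0.77 in STAM-INS (SE 0.12, limma adjusted p 0.00760). Nsdhl, the decarboxylating dehydrogenase of the same stage, gave 0.59, 0.50 and 0.57 in Normal, 1.28, 1.07 and 2.22 in STAM-NON and 2.16, 2.53 and 1.87 in STAM-INS. It rose in STAM-INS by 1.63 (SE 0.29, limma adjusted p 0.0120), whereas in STAM-NON the brighter probe did not pass (0.97, limma adjusted p 0.0535) and the dimmer one did (1.1, limma adjusted p 0.0367).

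Sc5d, which places the double bond of the second-to-last step, gave 5.24, 5.60 and 5.55 in Normal, 5.90, 5.59 and 6.02 in STAM-NON and 6.50, 6.49 and 6.17 in STAM-INS. Dhcr7, the last enzyme of one branch, which turns dehydrocholesterol into cholesterol, gave 0.30, 0.89 and 0.25 in Normal, 1.28, 1.30 and 2.06 in STAM-NON and 2.04, 2.66 and 1.55 in STAM-INS. Both rose in STAM-INS against Normal, Sc5d by 0.92 (limma adjusted p 0.0124) and Dhcr7 by 1.61 (limma adjusted p 0.0193). In STAM-NON the values were 0.37 and 1.07, which did not pass (limma adjusted p 0.145 and 0.0580). Tm7sf2, a sterol reductase with a partner of overlapping activity in the nuclear membrane, gave 6.22, 5.84 and 5.93 in Normal, 5.12, 5.10 and 5.74 in STAM-NON and 6.15, 6.25 and 6.16 in STAM-INS. STAM-NON lay below both other groups without overlap. Tm7sf2 fell by 0.68 in STAM-NON (SE 0.19, limma adjusted p 0.0454), its dimmer probe fell short of the threshold (-0.64, limma adjusted p 0.0501), and STAM-INS differed from Normal by 0.19 (95% interval -0.25 to 0.62).

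Cyp51, Msmo1 and Ebp, which remove methyl groups from lanosterol or move its double bond, did not pass in either comparison with Normal. Cyp51 differed by 0.49 in STAM-NON and by 1.05 in STAM-INS (limma adjusted p 0.269 and 0.0513). Msmo1 differed by 0.55 and 0.97 (limma adjusted p 0.209 and 0.0603), and Ebp by -0.26 and 0.13 (limma adjusted p 0.205 and 0.531). The STAM-INS mice lay above the Normal mice without overlap for all 3 of these genes. The call of Hsd17b7 in STAM-NON was lost only without Normal replicate 3 among the mice (limma adjusted p 0.0572), whereas that of Lss was kept only without STAM-NON replicate 2 or STAM-INS replicate 3 and that of Tm7sf2 only without STAM-NON replicate 3. In STAM-INS, the call of Fdft1 was kept only without STAM-NON replicate 2 or 3. The call of Lss was lost without STAM-INS replicate 1 or 2 or any 1 Normal mouse, Dhcr7 without STAM-INS replicate 2 or Normal replicate 1 or 3, and Sc5d without STAM-INS replicate 2, with limma adjusted p up to 0.0881, 0.0702 and 0.0507.

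**Figure D3:**
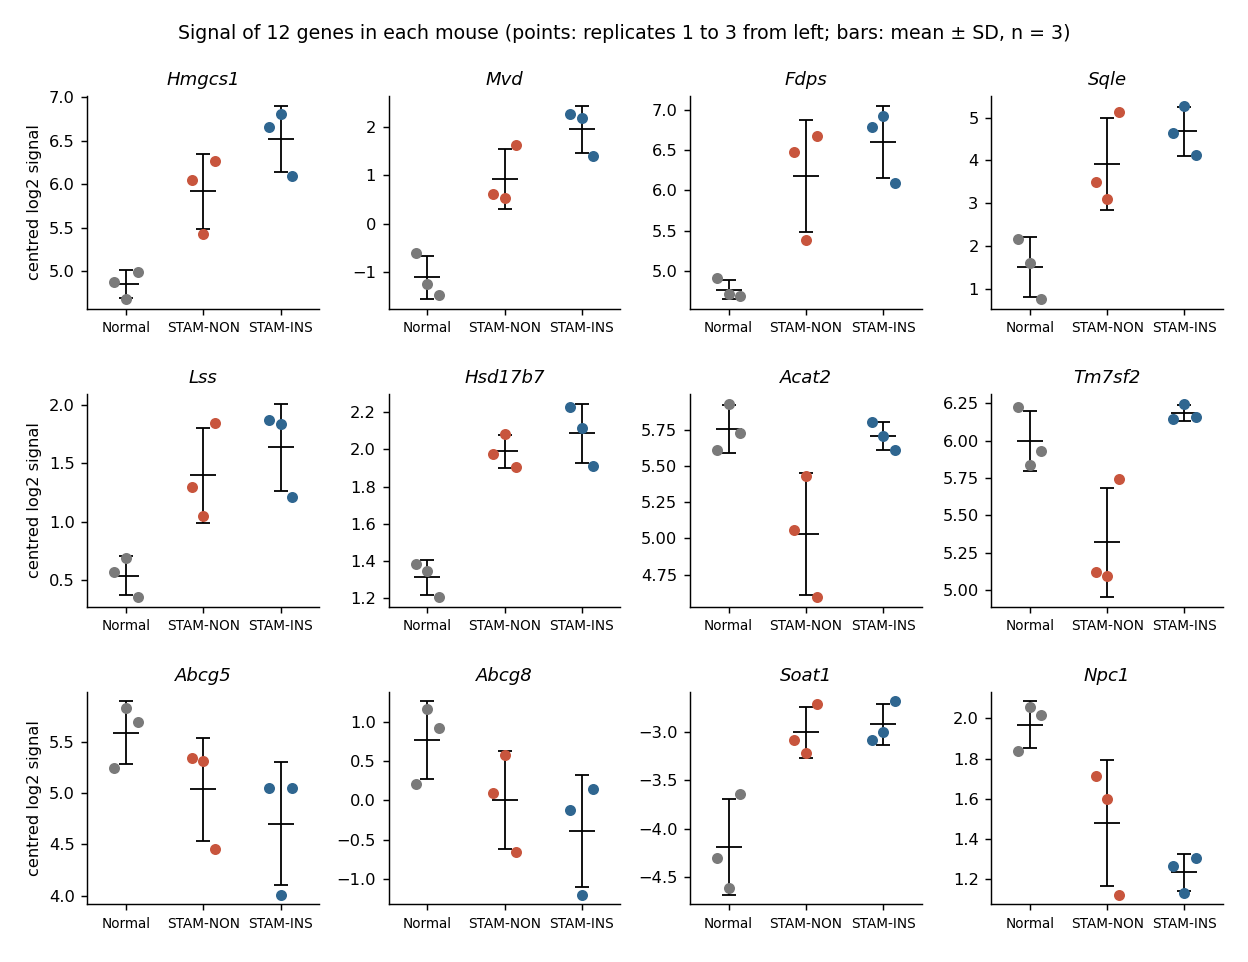
Centred log2 signal (vertical axes, each with its own range) of 12 genes in each mouse, with points for replicates 1 to 3 and bars for the group mean ± SD (n = 3). The 6 genes from Hmgcs1 to Hsd17b7 have every STAM mouse above every Normal mouse, Acat2 and Tm7sf2 are lowest in STAM-NON, and Abcg5, Abcg8 and Npc1 have their lowest mean in STAM-INS.

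Against STAM-NON, 0 of the 35 genes passed in STAM-INS by limma with Benjamini-Hochberg adjustment, beside 0.0913% of all tested probes (0.0114% higher and 0.0799% lower), and the lowest adjusted p among the probes used was 0.311 (Tm7sf2). At an unadjusted p under 0.05 there were 10 of 35, beside 8.78% of all probes. The methods' t-test gave 0 of 35 after adjustment and 3 of 35 without it (Pmvk, Tm7sf2 and Sc5d), and limma with trend and robust estimation gave 0. All 18 synthesis enzymes had a higher mean in STAM-INS than in STAM-NON, beside 54.9% of all probes, with a median difference of 0.56 against 0.03 over all probes. With spike-in centring it was 17 of 18. These enzymes vary together from mouse to mouse, so 18 like signs are not 18 separate observations.

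Groups did not overlap for 7 genes, which were all higher in STAM-INS (7.24% of all probes, and 4.92% lower), namely Acat2, Pmvk, Tm7sf2, Ebp, Sc5d, Insig2 and Scap. Tm7sf2 differed by 0.87 (95% interval 0.43 to 1.30), Pmvk by 0.76 (0.33 to 1.19) and Acat2 by 0.68 (0.21 to 1.14). Mvd had the largest difference, 1.03 (0.18 to 1.88), and overlapping groups, because STAM-NON replicate 3 lay above STAM-INS replicate 3. The intervals of Sqle (-0.53 to 2.07), Fdps (-0.37 to 1.21) and Hsd17b7 (-0.18 to 0.37) included 0. Without STAM-NON replicate 3, Tm7sf2 passed, with a difference of 1.08 (limma adjusted p 0.0445), and the median of the synthesis enzymes was 0.72. Without STAM-NON replicate 2 that median was 0.39.

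Of the 4 genes that sense sterol, 1 fell in STAM-NON, beside 9.76% of all tested probes, and 2 rose in STAM-INS, beside 5.16%. Insig1, which anchors the SREBP escort and is itself switched on by SREBP-2, gave 1.41, 1.46 and 1.46 in Normal, 1.58, 1.95 and 2.10 in STAM-NON and 2.53, 2.39 and 1.84 in STAM-INS. Srebf2, the gene of SREBP-2, gave -0.79, -0.70 and -1.16 in Normal, -0.55, -0.70 and -0.18 in STAM-NON and -0.01, 0.02 and -0.42 in STAM-INS. Both rose in STAM-INS, by 0.81 (limma adjusted p 0.0343) and 0.74 (limma adjusted p 0.0409), and the dimmer Srebf2 probe did not pass (0.72, limma adjusted p 0.102). In STAM-NON they differed by 0.44 and 0.40 (limma adjusted p 0.157 and 0.176). Scap, the escort itself, gave 5.28, 5.44 and 5.34 in Normal, 4.74, 4.92 and 5.08 in STAM-NON and 5.25, 5.12 and 5.20 in STAM-INS. It fell by 0.44 in STAM-NON (SE 0.12, limma adjusted p 0.0423), and STAM-INS differed from Normal by -0.16 (limma adjusted p 0.371). Insig2, the other anchor, differed by 0.09 in STAM-NON and 0.82 in STAM-INS, neither of which passed (limma adjusted p 0.853 and 0.0991). The call of Scap was kept only without STAM-NON replicate 3. In STAM-INS, Insig1 lost its call without replicate 1 or 2 of STAM-INS or any 1 Normal mouse, and Srebf2 under the same omissions and without STAM-NON replicate 1, with limma adjusted p up to 0.112 and 0.130.

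None of the 6 genes of efflux and LXR passed in any of the 3 comparisons by limma. Of all tested probes, 16.1% passed in STAM-NON against Normal, 0.0913% in STAM-INS against STAM-NON and 13.9% in STAM-INS against Normal. At an unadjusted p under 0.05 there were 0 of 6, 0 of 6 and 2 of 6 genes in the same order. The shares of all probes were 35.8%, 8.78% and 32.5%. The 2 genes were Abcg5 and Abcg8, named after their values were seen, which form the pump that moves sterol into bile. Abcg5 gave 5.25, 5.83 and 5.70 in Normal, 5.34, 5.31 and 4.46 in STAM-NON and 5.05, 4.01 and 5.05 in STAM-INS. Abcg8 gave 0.21, 1.17 and 0.92 in Normal, 0.09, 0.59 and -0.66 in STAM-NON and -0.13, -1.20 and 0.15 in STAM-INS. STAM-INS lay below Normal without overlap for both, with STAM-INS replicate 2 lowest, and the differences of -0.89 and -1.16 had limma adjusted p of 0.117 and 0.106. Abca1, which loads cholesterol onto lipoprotein particles, differed from Normal by -0.28 in STAM-NON and -0.18 in STAM-INS, with 95% intervals of -0.67 to 0.11 and -0.57 to 0.21. Abcg1, a partner exporter, differed by 0.59 (-0.05 to 1.23) and 0.32 (-0.32 to 0.96). Nr1h3, the gene of LXRα, differed by -0.24 and -0.11, and Mylip, a ubiquitin ligase that LXR switches on, by 0.14 and -0.44. Against these, the median over all tested probes was -0.13 in STAM-NON and -0.09 in STAM-INS.

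Of the 3 esterifying enzymes, Soat2 and Lcat did not pass in any comparison, and Soat1 was too dim in Normal for a measured fold. Soat1, the widely expressed enzyme that stores cholesterol as ester and the form found in macrophages, gave -4.30, -4.61 and -3.64 in Normal, -3.08, -3.22 and -2.71 in STAM-NON and -3.08, -3.00 and -2.69 in STAM-INS. It was well above background on 1 of 3 Normal arrays and on all 6 STAM arrays, so it entered the test only through the groups where it was high. The STAM mice lay above the Normal mice without overlap. The fitted differences from Normal were 1.18 in STAM-NON and 1.26 in STAM-INS (limma adjusted p 0.0236 and 0.0184), against a group mostly at background, and after normexp background correction they were 0.09 and 0.14 and did not pass. They missed the threshold in STAM-NON without STAM-NON replicate 1 or 3 or Normal replicate 1 or 2, and in STAM-INS without STAM-INS replicate 2 or 3 or Normal replicate 1 or 2. Soat2, the form of hepatocytes and intestine, differed by -0.63 in STAM-NON and -0.26 in STAM-INS (limma adjusted p 0.0536 and 0.371), and Lcat, the enzyme that esterifies cholesterol in plasma, by -0.45 and -0.23 (limma adjusted p 0.101 and 0.380).

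Of the 4 genes of uptake and transport in the cell, none passed in STAM-NON, beside 16.1% of all tested probes. Only 1 passed in STAM-INS, on the lower side, beside 8.72% of all probes. Npc1, which releases cholesterol from lysosomes, gave 1.84, 2.06 and 2.01 in Normal, 1.71, 1.60 and 1.12 in STAM-NON and 1.26, 1.13 and 1.31 in STAM-INS. All STAM mice lay below all Normal mice. Npc1 fell by 0.74 in STAM-INS (SE 0.16, limma adjusted p 0.0250), whereas the difference of -0.49 in STAM-NON did not pass (limma adjusted p 0.0731). The call was kept when any 1 STAM-NON mouse was left out and was lost without any 1 mouse of the 2 groups compared, with limma adjusted p up to 0.0877, and with spike-in centring. Npc2, the soluble partner of Npc1, differed by 0.21 in STAM-NON and 0.43 in STAM-INS. Stard4, a soluble sterol carrier, differed by -0.61 and -0.39, and Scarb1, the receptor that takes up cholesterol from high-density lipoprotein, by -0.27 and -0.03. None of these 3 genes passed, and the lowest limma adjusted p among them was 0.0645 (Stard4 in STAM-NON).

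Counted without a fitted model, 11 of 35 genes lay above Normal without overlap in STAM-NON and 7 below, beside 13.2% and 28% of all tested probes. In STAM-INS it was 20 above and 6 below, beside 15.1% and 29%. The counts above Normal include the dim Soat1. For the synthesis enzymes alone the counts were 9 above and 2 below of 18 in STAM-NON, and 15 above and 0 below in STAM-INS. The other 17 genes had 2 above and 5 below in STAM-NON, and 5 above and 6 below in STAM-INS.

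**Figure D4:**
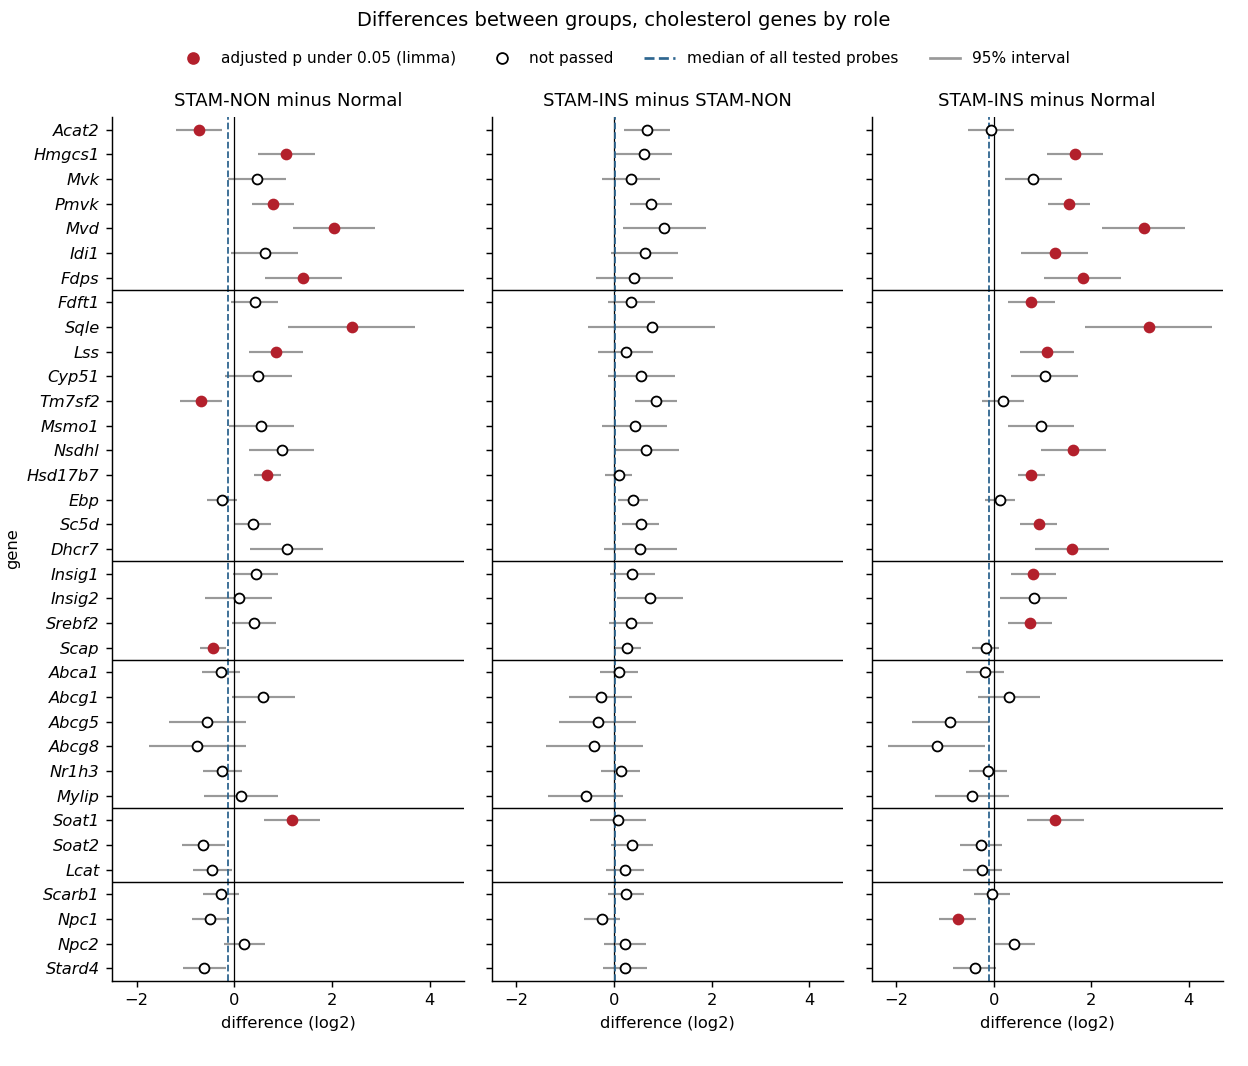
Difference between groups (log2, horizontal axes) for the 35 genes in 3 comparisons, with grey lines for the 95% interval, filled points for limma adjusted p under 0.05 and a dashed line at the median of all tested probes. Filled points gather among the synthesis enzymes in both comparisons with Normal, there are none for STAM-INS minus STAM-NON, and no gene of efflux and LXR is filled.

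A list of 33 further genes of the pathway was examined, of which 32 were tested. Against Normal, 1 rose and 4 fell in STAM-NON, with a list median of -0.03, and 2 rose and 3 fell in STAM-INS, with a list median of 0.08. These 5 of 32 genes in each comparison are close to the 16.1% and 13.9% of all probes that passed, so the calls do not set the list apart. Cd36, a fatty acid and lipoprotein scavenger receptor, rose in STAM-NON by 1.38 (limma adjusted p 0.0243). Acly and Acss2, which supply cytosolic acetyl-CoA from citrate and acetate, rose in STAM-INS by 1.14 and 0.88 (limma adjusted p 0.0285 and 0.0468), and the second Acss2 probe did not pass (limma adjusted p 0.0595). Por, the electron donor of Cyp51 and Sqle as well as of the drug-metabolising cytochromes, fell in both, by 0.66 in STAM-NON (limma adjusted p 0.0456) and by 1.97 in STAM-INS (limma adjusted p 0.00185). Its signals were 7.53, 7.28 and 7.30 in Normal, 6.95, 6.82 and 6.36 in STAM-NON and 5.37, 5.20 and 5.64 in STAM-INS.

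Rnf139, a ubiquitin ligase of the endoplasmic reticulum, fell by 0.59 in STAM-NON and by 0.49 in STAM-INS (limma adjusted p 0.0249 and 0.0404). Aacs, which activates acetoacetate for lipid synthesis, fell in STAM-NON by 1.25 (limma adjusted p 0.0308). Rxra, the partner receptor of LXR, fell there by 0.61 (limma adjusted p 0.0219), while its other probe differed by 0.01. Msr1, a scavenger receptor of macrophages, did not pass in STAM-NON by its brighter probe (1.18, limma adjusted p 0.0798) but did by the dimmer one (1.30, limma adjusted p 0.0403). Stard5, a sterol-binding protein, fell in STAM-INS by 0.56 (limma adjusted p 0.0468), and its other probe did not pass (limma adjusted p 0.0753). Between STAM-INS and STAM-NON, 0 of 32 passed by limma and 4 had an unadjusted p under 0.05, with the lowest limma adjusted p at 0.0725 for Por (-1.31). Srebf1, the gene of the SREBP that drives fatty acid synthesis, differed by 0.31 and 0.14 from Normal and did not pass.

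Markers of liver cell types were examined in the same comparisons. In STAM-NON against Normal, 2 of 6 tested macrophage markers rose (Clec4f and Cd5l), beside 6.3% of all tested probes. On the higher side, 2 of 3 biliary markers passed (Krt7 and Sox9), and Afp, the fetal and tumour marker, rose. Of the 7 hepatocyte markers 1 fell (Cps1), beside 9.76% of all probes, so this count does not set them apart. Krt7 was well above background on 1 of 3 Normal arrays and on all 6 STAM arrays, so it entered the test through the STAM arrays. None of the 6 stellate or fibroblast, 4 endothelial and 2 lymphocyte markers passed. The log2 of the summed linear signal of the macrophage markers ran from 6.41 to 7.01 in Normal, 7.48 to 8.26 in STAM-NON and 7.19 to 8.45 in STAM-INS. For the hepatocyte markers it ran from 11.99 to 12.09, 11.55 to 11.91 and 11.71 to 11.91, and for the biliary markers from -1.35 to -0.04, -0.10 to 0.74 and 0.29 to 0.47. The stellate or fibroblast markers ran from 2.22 to 3.13, 3.34 to 4.06 and 2.53 to 3.83, the endothelial ones from 4.92 to 5.15, 4.79 to 5.44 and 4.45 to 5.17, and the lymphocyte ones from 1.35 to 1.59, 1.03 to 1.48 and 1.31 to 2.12. Epcam, Cd79a, Ms4a1 and Gpc3 were too dim to be tested, and no probe matched Cd68 or H19. In STAM-INS against Normal, 2 of 6 macrophage, 1 of 3 biliary and 2 of 7 hepatocyte markers passed, in the same directions, and Afp rose. The shares of all probes there were 5.16% higher and 8.72% lower. None of the tested markers passed between STAM-INS and STAM-NON by limma, beside 0.0913% of all probes. Only 2 markers had an unadjusted p under 0.05, beside 8.78% of all probes. The part of cell composition in the differences of the cholesterol genes was not tested.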

How the data were processed

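Total liver RNA of 9 mice was hybridised by the authors to 1-colour Agilent SurePrint G3 mouse arrays, designed on mm9, and read with Feature Extraction 11.5.1.1. The deposited intensity is the background-subtracted processed signal of each spot. The labels name a FAVORGEN kit for the RNA and the methods a Qiagen kit. Here, log2 intensities were centred on the 75th percentile of each array, outlier spots were left out, and spots of a probe were averaged. A probe counted as well above background on an array if at least 0.5 of its spots were. It was tested if this held on all 3 arrays of at least 1 group. Probes were named by accession through RefSeq (GRCm38.p6, names only). All 3 groups entered 1 limma fit (3.58.1, R 4.3.3) with Benjamini-Hochberg adjustment over all 26278 tested probes, checked on simulated data. Precision is limited by 3 arrays a group. Values are given for every gene that passed in any comparison, and for others where stated. The genes and lists were chosen with earlier results of these data known. In 24 alternatives the test or 1 processing choice was changed, or 1 mouse was left out. The methods' t-test, a general one that they do not name for the arrays, was also read without adjustment. No column of another series was used.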

Additional observations from a re-analysis of the deposited data

How the results depend on the processing

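Over 24 alternatives and 19 named genes, no difference that passed changed sign, and 207 of the gene values lost their call, 17 gained one and 1141 kept their side of the threshold. The 11 genes that passed in STAM-NON against Normal became 6 with centring on the array median, 7 with quantile normalisation, 3 with the 2 groups alone in the fit, and 0 without the filter on dim probes, with the slide row as a block or by the methods' t-test after adjustment. Leaving out 1 mouse gave 1 to 13. The 16 genes in STAM-INS against Normal became 3 without the filter, and 10 with the slide row as a block or by the methods' t-test after adjustment, and 6 to 18 without 1 mouse. The 0 genes between STAM-INS and STAM-NON became 3 by the methods' t-test without adjustment and 0 to 1 without 1 mouse. Without the filter, 250 in place of 4220 probes passed in STAM-NON and 572 in place of 3647 in STAM-INS. The cause of these shifts was not tested. Same-numbered mice are not shown to be paired, since their deviations correlated at -0.10, -0.07 and 0.05 between STAM-NON and Normal, 0.15, -0.29 and -0.11 between STAM-INS and STAM-NON, and -0.07, 0.03 and 0.03 between STAM-INS and Normal. With the replicate block the counts were 3, 0 and 10 of 35 in the same order. Centring moved the median over all probes in STAM-NON from -0.13 to 0.16 with spike-ins and to -0.29 with the array median, and the split of all calls from 1655 higher and 2565 lower to 2566 and 469 or 1086 and 2049. It was 2093 and 1061 with the percentile over detected probes, 1537 and 1425 with quantile normalisation and 1313 and 3387 after normexp. In STAM-INS the split was 1355 and 2292, and 1459 and 701, 801 and 2111, 1677 and 1300, 1328 and 1758 or 1095 and 2647 in the same order. The gap between the synthesis median and that of all probes, which centring cannot change, was 0.78 (STAM-NON) and 1.17 (STAM-INS), 0.84 and 1.16 after quantile normalisation, 0.71 and 1.04 after normexp, and 0.46 and 1.02 with the slide row as a block. No depth applies to arrays, and dim probes such as that of Soat1 are limited by background.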
